A study of Homo sapiens with 90 samples.

Results

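The response of HepaRG cells to 10 µM 2,4-D was described against the 5 lowest concentrations of the same chemical. 2,4-D, or dichlorophenoxyacetic acid, is a chlorophenoxy herbicide, and HepaRG is an established human hepatoma line whose cells take on hepatocyte-like and biliary-like forms. Arrays were chosen by labelled agent and concentration, with 3 arrays at 10 µM and 15 arrays at 0.001 and 0.003, at 0.01 and 0.03, and at 0.1 µM, together 18 of the 90 columns of the series. The other 9 2,4-D arrays, at 0.3, 1 and 3 µM, were used to place the values in between, and 18 arrays each of fenbuconazole and imazalil, azole fungicides with the same layout, to set the 2,4-D response beside theirs. Vehicle (DMSO) columns were not used, but all cells had the same DMSO share in the medium. The cells were thawed onto collagen in 96-well plates, changed to induction medium on day 7, treated on day 8 and exposed for 24 h. Each concentration had 1 array of each of 3 P codes (P1, P2 and P3) in the sample description, which were taken as culture batches and kept as a block. In every P code the 10 µM array carried the lowest sample code of its 6 arrays, so that code order and concentration cannot be told apart.

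As background, hepatocytes sense foreign compounds through nuclear receptors. CAR and PXR switch on CYP2B6 and CYP3A4, the aryl hydrocarbon receptor (AHR) switches on CYP1A1 and CYP1A2, and PPARA, the receptor of fibrate drugs, switches on fatty acid oxidation. Phenoxy acids are known in rodents as weak peroxisome proliferators, which act through PPARA. Another program belongs to the hypoxia-inducible factor (HIF), which is hydroxylated by the EGLN enzymes and destroyed while oxygen is plentiful. Otherwise HIF raises glycolytic and collagen-modifying enzymes through sites with a core such as ACGTG.

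Expression is the log2 RMA level of a probe set, and each difference is 10 µM minus pooled low on that scale, with its standard error. By limma at an adjusted p under 0.05, 35 of 54715 probe sets had a higher and 123 a lower level at 10 µM, and 4934 had an unadjusted p under 0.05. Called differences were small: the smallest was 0.29 in size, and 2 probe sets moved by more than 1. Taken as genes, each represented by the brightest of the probe sets that carry its symbol alone, 14 of 19774 genes rose (0.0708%) and 70 fell (0.354%). All 3 arrays at 10 µM lay above all 15 low arrays for 10 of the 14 and below all 15 for 50 of the 70. Over all genes the shares were 0.4% and 0.577%, but the called genes were selected by the same difference, so nothing is read from that contrast. The counts leaned on single arrays. Without the P2 array at 10 µM 22 probe sets were higher and 49 lower, and without the P3 array 12 and 40. The higher count was also between 21 and 23 without replicate 1 or 3 at 0.001 µM, replicate 1 or 2 at 0.01 µM, or any replicate at 0.1 µM. Of the 51 called genes described below, 10 kept their call whichever of the 18 arrays was left out (SLC51A, PDK1, ADSS1, EPHA1, ISG20, CD3D, P4HA1, ALDOC, FABP4 and AP1M2), 30 lost it only without an array at 10 µM, and 11 also without a low array. Array medians lay between 2.88 and 2.96. They were 2.928, 2.905 and 2.933 at 10 µM in P1, P2 and P3 and 2.930 to 2.957 at 0.03 µM, against 2.876 to 2.922 in the other low arrays.

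**Figure D1:**
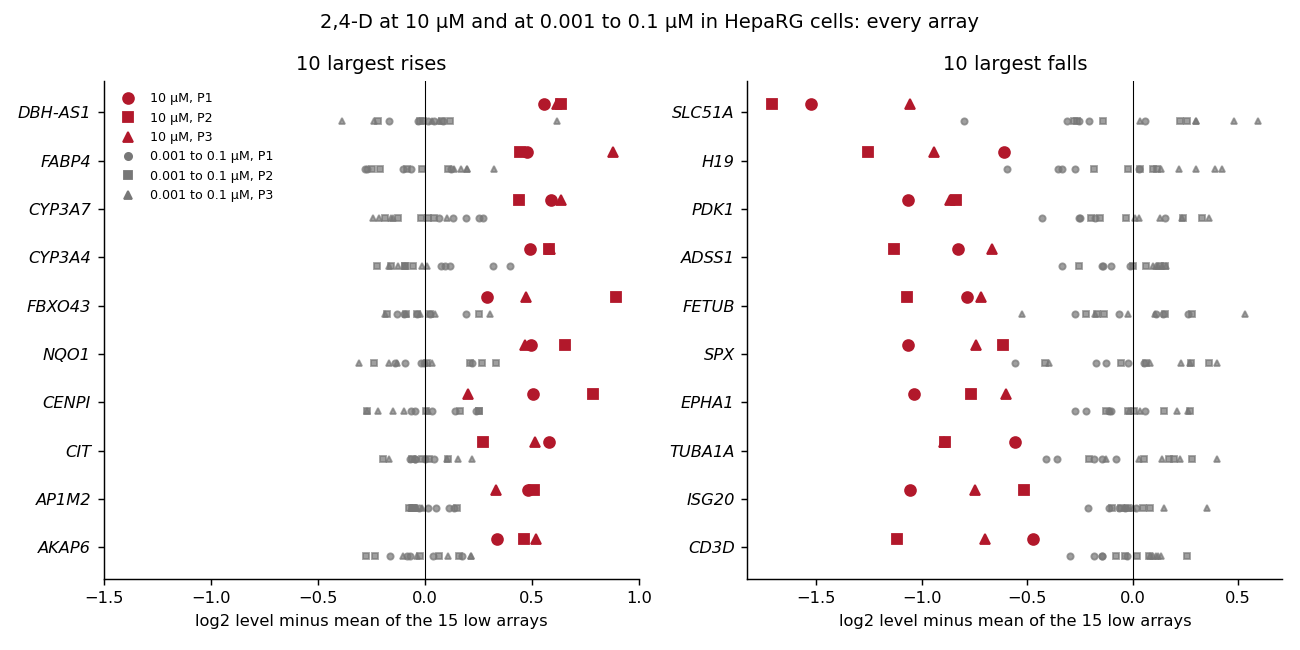
Log2 level of the 10 genes that rose most and the 10 that fell most, each array drawn as its level minus the mean of the 15 low arrays, for the 3 arrays at 10 µM (red) and the 15 low arrays (grey), with P codes as marker shapes. SLC51A reached furthest from 0, with 3.32, 3.13 and 3.79 at 10 µM against 4.04 to 5.44 in the low arrays, and FABP4 had 7.05, 7.03 and 7.46 against 6.30 to 6.90.

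SLC51A had the largest change of any gene. It encodes a subunit of the transporter that carries bile acids out across the basolateral membrane, and it is a known target of the bile acid receptor. Its level was 3.32, 3.13 and 3.79 at 10 µM in P1, P2 and P3, against 4.04 to 5.44 with a median of 4.88 in the low arrays. All 3 arrays lay below all 15. The difference was -1.43 ± 0.14, or 2.69-fold lower (adjusted p = 3.83e-05 by limma), and it was -1.22, -1.67 and -1.40 within P1, P2 and P3. ABCB4, which exports phosphatidylcholine into bile, had 7.91, 7.80 and 8.05, against 8.13 to 8.43 with a median of 8.27. Again without overlap, it fell by 0.35 ± 0.06 (adjusted p = 0.0119), a call lost with any 1 of the arrays at 10 µM left out (adjusted p 0.0533 to 0.127). Of the 15 measured genes of bile acid synthesis and transport these 2 fell and 0 rose, against 0.354% and 0.0708% of all genes, and the list median was -0.09, against -0.002 for all genes. CYP8B1, a sterol hydroxylase of bile acid synthesis, had -0.29 ± 0.08 (adjusted p = 0.199).

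In the list of glycolysis and hypoxia genes 6 of 22 measured members fell and 0 rose, against 0.354% that fell among all genes. The other 16 did not pass, and 19 of the 22 differences were negative. The list median was -0.18, and within P1, P2 and P3 it was -0.14, -0.20 and -0.24. PDK1, the kinase that shuts pyruvate out of mitochondrial oxidation, led the list with 6.11, 6.34 and 6.31 at 10 µM, against 6.75 to 7.54 with a median of 7.19 in the low arrays. The groups did not overlap. PDK1 fell by 0.92 ± 0.11, or 1.9-fold (adjusted p = 0.00028), and its second probe set fell by 0.75 (adjusted p = 0.00992). EGLN3, an oxygen-sensing hydroxylase that HIF itself raises, had 7.96, 7.84 and 8.21, against 8.39 to 8.91 with a median of 8.63, and fell by 0.61 ± 0.09 (adjusted p = 0.00225). NDRG1, a stress-response gene strongly raised by low oxygen, had 8.67, 8.33 and 8.48, against 8.80 to 9.68 with a median of 9.12, and fell by 0.63 ± 0.12 (adjusted p = 0.0168). Neither overlapped the low range.

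The remaining falls on the list were smaller. ALDOC, an aldolase, had 7.45, 7.55 and 7.84 at 10 µM, against 7.82 to 8.31 with a median of 8.08, so that its P3 array lay within the low range, and it fell by 0.47 ± 0.07 (adjusted p = 0.0026). PGK1, phosphoglycerate kinase, had 10.85, 11.06 and 11.03, against 11.15 to 11.39 with a median of 11.27, and fell by 0.30 ± 0.06 (adjusted p = 0.0275). BNIP3, a receptor for the removal of mitochondria, had 10.09, 9.97 and 9.97, against 10.21 to 10.83 with a median of 10.46, and fell by 0.45 ± 0.10 (adjusted p = 0.0481). PGK1 and BNIP3 did not overlap. LDHA, TPI1 and GAPDH, enzymes of the same route, had -0.19, -0.17 and -0.16 (adjusted p of 0.22, 0.336 and 0.366). VEGFA, the angiogenic growth factor, had 0.03 and HK2, a hexokinase, 0.13 (adjusted p of 0.965 and 0.734). Without 1 array at 10 µM the adjusted p reached 0.158 for NDRG1 (P2), 0.0602 for EGLN3 (P2), 0.166 for PGK1 (P1) and 0.27 for BNIP3 (P3), and BNIP3 also lost its call with any 1 of 11 low arrays left out.

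**Figure D2:**
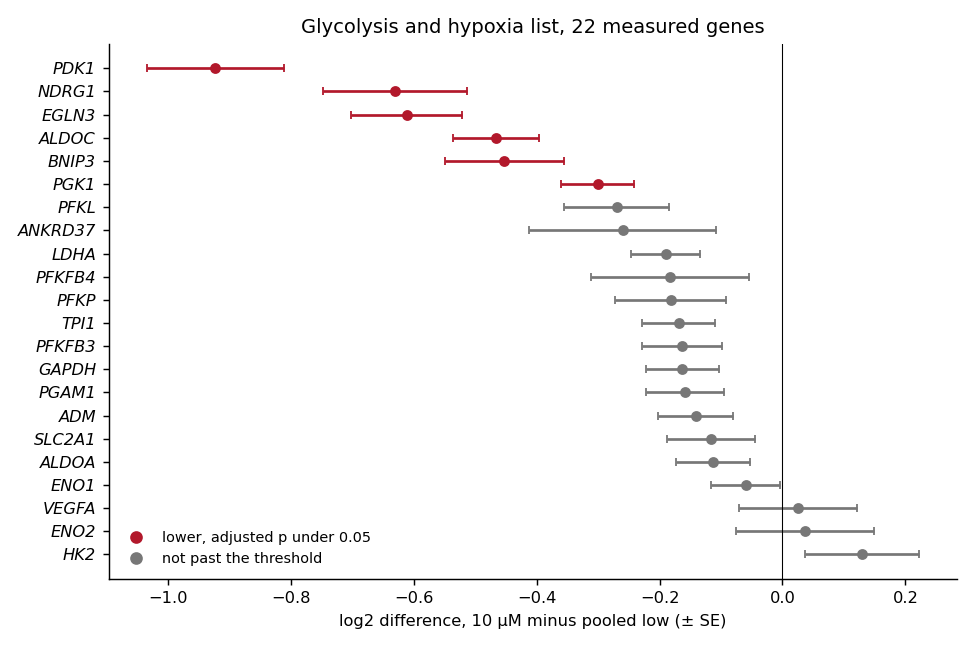
Log2 difference, 10 µM minus pooled low, with its standard error, for the 22 measured members of the glycolysis and hypoxia list, genes past an adjusted p of 0.05 set apart by colour. The 6 called genes all lie below 0, led by PDK1 at -0.92, and 3 of the 22 genes lie above 0.

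A further 9 genes outside the list were picked out because they fell, with their values in view, so that they are no evidence for a shared direction, and genes of like kind that did not fall were not counted. NDRG1, PGK1 and BNIP3 were chosen from the list in the same way. P4HA1 and PLOD2 hydroxylate prolines and lysines of collagen. P4HA1 had 6.60, 6.49 and 6.40 at 10 µM, against 6.90 to 7.32 with a median of 7.13, and fell by 0.61 ± 0.08 (adjusted p = 0.000363). Over all processing settings the P4HA1 difference lay between -0.67 and -0.30. PLOD2 had 9.77, 9.88 and 9.82, against 10.02 to 10.71 with a median of 10.37, and fell by 0.55 ± 0.10 (adjusted p = 0.0129). Neither overlapped, and a second PLOD2 probe set fell by 0.66 (adjusted p = 3.83e-05). MIR210HG, the host transcript of a hypoxia-induced microRNA, had 5.34, 5.52 and 5.58, against 5.69 to 6.44 with a median of 6.11, and fell by 0.62 ± 0.11 (adjusted p = 0.00834). SLC6A8, the creatine transporter, fell by 0.74 and TMEM45A, a transmembrane protein, by 0.74 (adjusted p of 0.00851 and 0.00394). IGFBP3, which binds insulin-like growth factors, fell by 0.59 and PLOD1, a lysyl hydroxylase, by 0.48 (adjusted p of 0.0426 and 0.0426). CA12, a membrane carbonic anhydrase, fell by 0.44 and BNIP3L, a relative of BNIP3, by 0.36 (adjusted p of 0.0141 and 0.0219). In all of these the 3 arrays lay below all 15. P4HA1 kept its call with any array left out, while each of the others lost it without at least 1 array at 10 µM, with adjusted p of up to 0.391 for PLOD1 and 0.277 for IGFBP3, which also lost theirs with any 1 of 11 and of 10 low arrays left out.

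Promoters of some of these genes are shown so that the core ACGTG can be read in them. The 250 bases before the annotated start were taken from RefSeq (GRCh38.p14) for PDK1 and for 5 more of the genes, whose windows hold the core. Capitals mark ACGTG and its reverse complement CACGT, which overlap in CACGTG, and each window runs 5′ to 3′ on the gene's own strand.
PDK1 (chr2:172555123-172555372, plus strand): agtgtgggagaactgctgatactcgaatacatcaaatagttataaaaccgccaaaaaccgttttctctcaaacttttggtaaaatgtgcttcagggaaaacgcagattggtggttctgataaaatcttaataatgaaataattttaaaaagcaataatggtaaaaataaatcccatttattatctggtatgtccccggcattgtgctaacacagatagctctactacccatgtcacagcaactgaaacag
ALDOC (chr17:28576896-28577145, minus strand): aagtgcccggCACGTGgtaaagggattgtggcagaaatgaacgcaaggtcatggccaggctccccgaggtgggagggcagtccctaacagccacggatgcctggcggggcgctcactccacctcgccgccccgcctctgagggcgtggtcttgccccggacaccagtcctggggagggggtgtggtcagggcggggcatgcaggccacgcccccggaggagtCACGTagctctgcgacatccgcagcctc
PGK1 (chrX:78103998-78104247, plus strand): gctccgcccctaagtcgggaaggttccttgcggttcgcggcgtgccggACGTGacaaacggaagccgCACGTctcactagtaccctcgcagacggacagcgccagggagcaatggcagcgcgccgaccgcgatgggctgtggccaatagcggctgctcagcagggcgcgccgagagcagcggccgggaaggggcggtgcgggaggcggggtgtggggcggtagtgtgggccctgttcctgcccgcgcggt
BNIP3 (chr10:131981924-131982173, minus strand): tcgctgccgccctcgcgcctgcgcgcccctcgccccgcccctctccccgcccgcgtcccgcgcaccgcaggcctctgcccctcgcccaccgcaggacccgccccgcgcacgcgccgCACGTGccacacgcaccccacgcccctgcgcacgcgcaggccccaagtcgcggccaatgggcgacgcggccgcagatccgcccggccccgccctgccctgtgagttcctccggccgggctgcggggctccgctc
P4HA1 (chr10:73096867-73097116, minus strand): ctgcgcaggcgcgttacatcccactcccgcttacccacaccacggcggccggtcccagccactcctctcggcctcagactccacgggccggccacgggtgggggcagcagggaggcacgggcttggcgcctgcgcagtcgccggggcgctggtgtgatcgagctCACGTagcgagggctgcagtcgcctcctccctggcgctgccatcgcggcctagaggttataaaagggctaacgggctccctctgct
PLOD2 (chr3:146161185-146161434, minus strand): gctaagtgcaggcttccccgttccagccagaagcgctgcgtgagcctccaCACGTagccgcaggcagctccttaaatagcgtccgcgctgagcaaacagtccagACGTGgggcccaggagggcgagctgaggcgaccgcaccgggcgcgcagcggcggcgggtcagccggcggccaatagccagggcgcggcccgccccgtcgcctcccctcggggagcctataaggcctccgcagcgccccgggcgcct
PGK1 has the core 202 and 183 bases before the start, PLOD2 at 200 and 146 and P4HA1 at 86. ALDOC and BNIP3 hold the overlapping pair, and ALDOC a further core at 28. Neither PDK1 nor EGLN3 holds these letters in the window. They stand in 18.7% of the 27305 promoters of the table and in 21.3% of the 15399 that belong to measured genes. Of the 54 lower genes with a promoter 19 hold the core (35.2%), and of the 9 higher genes 0. On the glycolysis and hypoxia list 9 of 20 hold it, with 3 of its 5 lower genes and 6 of its 15 uncalled ones. Only ACGTG and its reverse complement were searched, and no other form of a HIF core. A match describes letters and is not a binding site measured here.

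The other large falls were of varied function. H19, an imprinted fetal transcript that codes for no protein, had 5.59, 4.94 and 5.25 at 10 µM, against 5.60 to 6.62 with a median of 6.23. The P1 array lay just under the lowest low value. H19 fell by 0.93 ± 0.14 (adjusted p = 0.00171), with -0.30, -1.26 and -1.24 within P1, P2 and P3. ADSS1, an adenylosuccinate synthase of purine nucleotide formation, had 7.67, 7.37 and 7.83, against 8.16 to 8.66 with a median of 8.56, and fell by 0.88 ± 0.09 (adjusted p = 3.83e-05). EPHA1, an ephrin receptor kinase, had 4.35, 4.62 and 4.78, against 5.11 to 5.66 with a median of 5.37, and fell by 0.80 ± 0.09 (adjusted p = 0.00013). No array at 10 µM reached the low range in either. Over all processing settings their smallest differences in size were -0.47 for ADSS1 and -0.45 for EPHA1. ISG20, an interferon-induced exonuclease, had 4.57, 5.11 and 4.88, against 5.42 to 5.98 with a median of 5.60, and fell by 0.77 ± 0.09 (adjusted p = 0.000134). SPX, the peptide hormone spexin, had 5.06, 5.51 and 5.38, against 5.56 to 6.52 with a median of 6.18, and fell by 0.81 ± 0.15 (adjusted p = 0.0165). Both were again without overlap. TUBA1A, an alpha-tubulin, had 6.31, 5.98 and 5.97, against 6.46 to 7.27 with a median of 6.90, and fell by 0.78 ± 0.12 (adjusted p = 0.00419). CD3D, a subunit of the T cell receptor complex, had 5.68, 5.03 and 5.45, against 5.86 to 6.41 with a median of 6.17, and fell by 0.76 ± 0.10 (adjusted p = 0.000807). TUBA1A and CD3D moved least in P1, by -0.32 and -0.31. Of 13 interferon response genes IFI27 fell, by 0.40 (adjusted p = 0.0408), and 0 rose, against 0.354% and 0.0708% of all genes, and the median was -0.10. Without single arrays at 10 µM the adjusted p was 0.0602 and 0.0663 for H19 (P2, P3), 0.0831 and 0.118 for TUBA1A (P2, P3) and 0.0643 to 0.164 for SPX (any). IFI27 lost its call with any 1 of the arrays at 10 µM or of 7 low arrays left out (adjusted p of up to 0.218).

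Of the lists of plasma protein genes, 1 of 12 acute phase genes fell and 0 rose, against 0.354% and 0.0708% of all genes, and 0 of 18 complement and coagulation genes were called. FETUB, the protease inhibitor fetuin-B, had 3.63, 3.34 and 3.69 at 10 µM, against 3.89 to 4.94 with a median of 4.39, and fell by 0.86 ± 0.15 (adjusted p = 0.00992). CP, the copper-carrying ferroxidase ceruloplasmin, had 10.66, 10.63 and 11.29, against 11.28 to 11.68 with a median of 11.40, with its P3 array just inside the low range. CP fell by 0.57 ± 0.10 (adjusted p = 0.00948), and its other 3 probe sets fell by 0.55, 0.66 and 0.73. MBL2, the mannose-binding lectin of a complement route, had 3.52, 3.55 and 3.74, against 3.83 to 4.52 with a median of 4.24, and fell by 0.60 ± 0.12 (adjusted p = 0.0291). AHSG (fetuin-A), SPP2, a secreted phosphoprotein, and TFR2, a hepatic receptor that senses iron-loaded transferrin, were chosen after their values were seen. AHSG fell by 0.46 ± 0.07, SPP2 fell by 0.44 ± 0.08 and TFR2 fell by 0.72 ± 0.15 (adjusted p of 0.0043, 0.0113 and 0.0412). The acute phase gene that fell was CP, the list median was -0.03, and ORM1, HP and FGG had -0.02, -0.07 and -0.05 (adjusted p of 0.957, 0.772 and 0.864). CRP, the C-reactive protein, had -0.63 ± 0.14 (adjusted p = 0.0599) at its brighter probe set and fell by 0.63 (adjusted p = 0.00139) at the other. Left-out arrays at 10 µM raised the adjusted p to 0.143 for CP (P2), 0.125 for FETUB (P2), 0.148 for MBL2 (P2), 0.228 for SPP2 (P3), 0.0851 for AHSG (P2) and 0.311 for TFR2 (P3), which also lost its call with any 1 of 7 low arrays left out.

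Among the drug-metabolizing P450 genes CYP3A4 and CYP3A7 rose. CYP3A4, the main drug-oxidizing P450 of adult liver, had 10.21, 10.30 and 10.30 at 10 µM, against 9.49 to 10.12 with a median of 9.66. The groups did not overlap. CYP3A4 rose by 0.55 ± 0.08, or 1.47-fold (adjusted p = 0.00221), with 0.29, 0.71 and 0.66 within P1, P2 and P3. CYP3A7, its fetal relative, had 9.87, 9.72 and 9.92, against 9.04 to 9.55 with a median of 9.30, and rose by 0.56 ± 0.08 (adjusted p = 0.00171). Both probe sets carry the platform's mark for sets that may bind related transcripts. Of the 4 CYP3A4 probe sets 3 rose, by 0.55, 0.63 and 0.58, and the other, at a low level, had -0.04. CYP3A5, another member of the family, had 0.35 ± 0.10 (adjusted p = 0.183). A CYP3A7 probe set without the mark rose by 0.57 ± 0.07 (adjusted p = 0.000353). Without the P2 or P3 array at 10 µM the adjusted p of CYP3A4 was 0.0608 and 0.06, and that of CYP3A7 was 0.0623 without P3.

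The other CAR and PXR targets moved less. In that list 2 of 15 genes rose and 1 fell, against 0.0708% and 0.354% of all genes, and the median was 0.15. CYP2B6, the classical CAR target, had 4.62, 4.26 and 4.28 at 10 µM, within the low range of 4.03 to 4.67, a difference of 0.06 ± 0.09 (adjusted p = 0.897). These values are of the brightest probe set with the CYP2B6 symbol alone. Probe sets with several symbols or none were not counted to any gene. ABCB1, the efflux pump P-glycoprotein, and SULT2A1, a sulfotransferase, had 0.26 and 0.27 (adjusted p of 0.0565 and 0.123). The gene that fell was THRSP, a lipogenic gene that responds to thyroid hormone, with 6.61, 6.47 and 6.59, against 6.79 to 7.28 with a median of 6.98. THRSP fell by 0.42 ± 0.08 (adjusted p = 0.0281), a call lost with any 1 of the arrays at 10 µM left out (adjusted p 0.0539 to 0.256). Among 10 AHR targets 1 rose, against 0.0708% of all genes. It was NQO1, which the NRF2 list shares. CYP1A1 had 3.11, 2.93 and 3.13, against 2.70 to 3.01 with a median of 2.78, a difference of 0.22 ± 0.08 (adjusted p = 0.35), and CYP1A2 had 0.30 ± 0.14 (adjusted p = 0.541). The CYP1A1 mean in the low arrays, 2.84, lay under all array medians.

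NQO1, a quinone reductase, had 4.77, 4.93 and 4.74 at 10 µM, against 3.97 to 4.61 with a median of 4.27, and rose by 0.54 ± 0.10 (adjusted p = 0.0141). Its other 2 probe sets had 0.04 and 0.35 (adjusted p of 0.965 and 0.459). It was the only one of 14 NRF2 targets called, against 0.0708% of all genes that rose, and the list median was 0.12. AKR1B10, an aldo-keto reductase on that list, had 0.28 ± 0.06 (adjusted p = 0.0503). FABP4, a fatty acid carrier of fat cells and macrophages, had 7.05, 7.03 and 7.46, against 6.30 to 6.90 with a median of 6.57, and rose by 0.60 ± 0.08 (adjusted p = 0.001). Over all processing settings the FABP4 difference went down to 0.25, and its adjusted p up to 0.196. AP1M2, a clathrin adaptor subunit of epithelial cells, had 7.34, 7.36 and 7.19, against 6.78 to 7.00 with a median of 6.82, and rose by 0.44 ± 0.06 (adjusted p = 0.00115). NQO1, FABP4 and AP1M2 lay above all 15 low arrays. DBH-AS1, a transcript antisense to the dopamine hydroxylase gene, had 5.43, 5.51 and 5.49, against 4.49 to 5.49 with a median of 4.89, overlapping, and rose by 0.60 ± 0.13 (adjusted p = 0.043). AKAP6, an anchor of protein kinase A, had 3.11, 3.24 and 3.29, against 2.50 to 2.99 with a median of 2.75, and rose by 0.44 ± 0.09 (adjusted p = 0.0422). The AKAP6 mean in the low arrays, 2.77, lay under all array medians. SLC17A3, an organic anion transporter chosen after its values were seen, rose by 0.40 ± 0.07 (adjusted p = 0.00992). With any 1 of the arrays at 10 µM left out NQO1 and SLC17A3 lost their calls (adjusted p of up to 0.157 and 0.113), and so did DBH-AS1 and AKAP6, which lost theirs also with any 1 of 11 and of 9 low arrays left out (up to 0.228 and 0.224).

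In the cell cycle list 0 of 20 genes passed, while 18 of the differences were positive and the median was 0.19, against -0.002 for all genes. Of the 10 genes that rose most, CENPI builds the kinetochore, CIT (citron kinase) acts in cytokinesis, and FBXO43 inhibits the anaphase-promoting complex. CIT had 5.26, 4.96 and 5.20 at 10 µM, against 4.49 to 4.90 with a median of 4.67, and rose by 0.46 ± 0.08 (adjusted p = 0.00992). CENPI had 4.74, 5.01 and 4.43, against 3.96 to 4.48 with a median of 4.24, and rose by 0.50 ± 0.10 (adjusted p = 0.0294). FBXO43 had 4.39, 4.99 and 4.58, against 3.92 to 4.41 with a median of 4.07, and rose by 0.55 ± 0.11 (adjusted p = 0.0267). CIT did not overlap, and the other two had 1 array each inside the low range. CDCA8, a subunit of the chromosomal passenger complex, rose by 0.38 ± 0.07 and CENPM, another centromere protein, rose by 0.41 ± 0.09 (adjusted p of 0.017 and 0.0422), both chosen after their values were seen. On the list RRM2, which makes deoxynucleotides, came closest at 0.28 ± 0.07 (adjusted p = 0.114), and BUB1B, of the spindle checkpoint, had 0.28 ± 0.08 (adjusted p = 0.162). Less bright probe sets of MKI67 and AURKA, named after their values were seen, rose by 0.49 and 0.37 (adjusted p of 0.0203 and 0.0494). Within P1, P2 and P3 the list median was 0.16, 0.32 and 0.06. CENPI, CDCA8 and CENPM lost their calls with any 1 of the arrays at 10 µM left out, CIT without P1 or P3 and FBXO43 without P2 or P3, with adjusted p of up to 0.236. CENPM lost its call also with any 1 of 11 low arrays left out.

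No PPARA target rose past the threshold. Of 19 measured members 0 rose and 1, MBL2, fell, against 0.0708% and 0.354% of all genes, and the median was -0.06. PDK4, the kinase that fibrates induce, had 8.24, 8.46 and 8.07 at 10 µM, within the low range of 7.97 to 8.69, a difference of -0.06 ± 0.13 (adjusted p = 0.934). CPT1A, the gate of mitochondrial fatty acid uptake, had 0.09 ± 0.07 (adjusted p = 0.775), and FABP1, the liver fatty acid carrier, -0.14 ± 0.07 (adjusted p = 0.556). ANGPTL4, which inhibits lipoprotein lipase, had -0.31 ± 0.11 (adjusted p = 0.327), PLIN2, which coats lipid droplets, -0.25 ± 0.06 (adjusted p = 0.127), and CYP4A11, a fatty acid hydroxylase, -0.32 ± 0.09 (adjusted p = 0.184). Among 23 fatty acid oxidation enzymes 1 rose and 0 fell, against 0.0708% and 0.354% of all genes, with a median of 0.02. It was ACOX2, a peroxisomal oxidase of branched fatty acids and bile acid precursors, with 6.33, 5.90 and 6.02, against 5.35 to 5.84 with a median of 5.67. ACOX2 rose by 0.43 ± 0.09 (adjusted p = 0.0301), and lost its call with any 1 of the arrays at 10 µM, or replicate 2 at 0.1 µM, left out (adjusted p 0.0505 to 0.204).

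Single genes of other lists fell, against 0.354% of all genes. GLYATL1, an acyltransferase, fell by 0.41 ± 0.08 (adjusted p = 0.0203), the only call among 12 genes of conjugation with glycine and taurine. INHBE, an activin subunit secreted by hepatocytes, fell by 0.56 ± 0.11 (adjusted p = 0.0332), the only call among 20 genes of ER stress and the amino acid response, with arrays at 10 µM inside the low range. PKLR, the liver pyruvate kinase, fell by 0.33 ± 0.07 (adjusted p = 0.046), the only call among 14 genes of gluconeogenesis and glucose control. Of 6 metallothioneins 0 passed, 5 had negative differences and the median was -0.22, with MT1X at -0.38 ± 0.08 (adjusted p = 0.0565). Of 19 cholesterol synthesis genes 0 passed, and the median was 0.08. The heat shock, p53, oxidative phosphorylation and ribosomal protein lists had 0 calls among 11, 14, 21 and 11 genes. GLYATL1 lost its call with any 1 of the arrays at 10 µM left out, INHBE with any 1 of 8 and PKLR with any 1 of 15 of the 18 arrays left out.

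Markers of cell types were checked beside these genes. The summed linear level of 11 hepatocyte markers was 48800 to 51700 at 10 µM, against 48900 to 52400 in the low arrays. That of 11 biliary markers was 3700 to 3810, against 4010 to 4650, and that of 12 mesenchymal markers 1740 to 1940, against 2010 to 2500. Both of these sums lay below all low arrays, but a linear sum gives most weight to the brightest genes. The median log2 difference of the biliary list was 0.006, with 6 of 11 positive. That of the mesenchymal list was -0.13, with 10 of 12 negative. CD24, of the biliary list, fell by 0.39 ± 0.06 (adjusted p = 0.00524), while KRT19, KRT7 and EPCAM had -0.09, 0.09 and 0.19 (adjusted p of 0.711, 0.832 and 0.448). DCN, the matrix proteoglycan decorin, fell by 0.39 ± 0.07 (adjusted p = 0.0219), while COL1A1, ACTA2 and VIM had -0.07, -0.05 and -0.10 (adjusted p of 0.929, 0.885 and 0.818). Each list thus held 1 gene that fell, against 0.354% of all genes. The sum of 11 immune markers was 171 to 202, against 210 to 252, with CD3D as its call, while PTPRC, present on all white blood cells, averaged 2.44 in both groups, under the array medians. The sum of 12 endothelial markers was 116 to 126, against 99.8 to 119. Of the endothelial markers 8, and of the immune markers 7, averaged under the median level of the arrays. In bulk samples fewer cells of a type and less RNA per cell cannot be told apart, and the part of these shifts in the other falls was not tested. Without the P2 or P3 array at 10 µM the adjusted p was 0.0834 and 0.0577 for CD24 and 0.136 and 0.246 for DCN.

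Of the higher concentrations only 10 µM gave calls against the low pool. At 0.3, 1 and 3 µM 0% of probe sets were called against the pooled low arrays, with 2987, 2966 and 2625 of 54715 at an unadjusted p under 0.05, in a limma fit of 27 arrays that called 66 higher and 225 lower at 10 µM. These comparisons share the 15 low arrays. SLC51A had differences of -0.16, -0.60, -0.52 and -1.43 at 0.3, 1, 3 and 10 µM, PDK1 -0.03, -0.25, -0.35 and -0.92, and ADSS1 -0.04, -0.26, -0.35 and -0.88. CYP3A4 had -0.05, 0.18, 0.18 and 0.55, and FABP4 -0.14, 0.10, 0.09 and 0.60. SPX had 0.09, -0.02, -0.02 and -0.81 and ISG20 0.00, 0.11, 0.02 and -0.77, so that their differences below 10 µM were small in size. The median of the glycolysis and hypoxia list was -0.01, -0.05, -0.05 and -0.18, and that of the cell cycle list 0.02, 0.08, 0.08 and 0.19. Among the 5 low concentrations 0% of probe sets differed past the threshold by limma's moderated F test. At an unadjusted p under 0.05 there were 5703 of 54715 (10.4%), against 4934 in the comparison of 10 µM with the pool. The pool was thus not shown to be uniform.

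**Figure D3:**
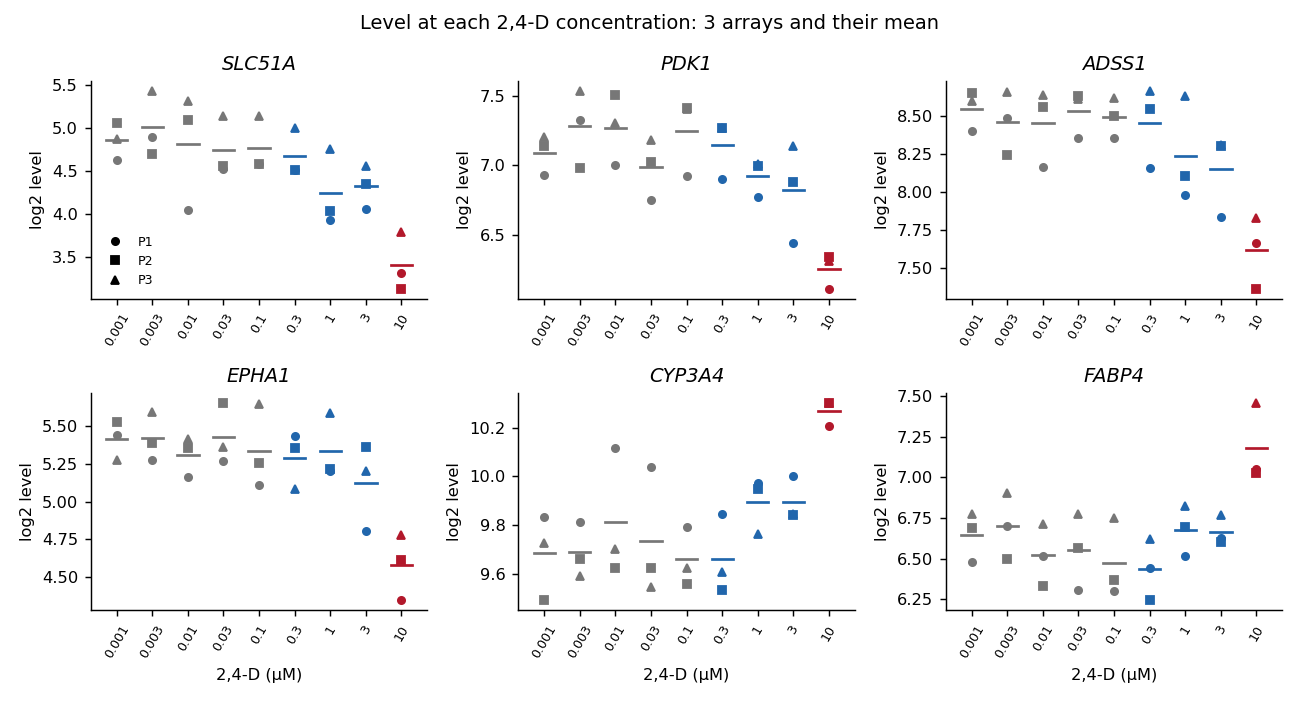
Log2 level of 6 genes at each of 9 2,4-D concentrations on an ordered axis, with 3 arrays each (P codes as marker shapes) and their mean as a bar. SLC51A, PDK1 and ADSS1 have differences from the low pool of -0.60, -0.25 and -0.26 at 1 µM and of -1.43, -0.92 and -0.88 at 10 µM, while EPHA1 has -0.05 and -0.80.

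A slope over log10 concentration passed for 30 probe sets (0.0548%), 2 upward and 28 downward. SLC51A had the smallest p, with a slope of -0.30 ± 0.05 per log10 unit of concentration (adjusted p = 0.00444). NDRG1 had -0.15, TMEM45A -0.17, ADSS1 -0.17 and PDK1 -0.18 (adjusted p of 0.0256, 0.0159, 0.0274 and 0.0444), and a CYP3A4 probe set had 0.12 (adjusted p = 0.0343). STC1, a secreted glycoprotein that low oxygen induces, had slopes of -0.18 and -0.12 at 2 probe sets (adjusted p of 0.0182 and 0.0269). Without the 3 arrays at 10 µM 1 probe set passed, of LENG8. STC1 and LENG8 were picked out with their values in view.

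The response was set beside those of fenbuconazole and imazalil at the same concentrations and time, each against its own 15 low arrays. At 10 µM 2,4-D had 35 probe sets higher and 123 lower, fenbuconazole 299 and 327, and imazalil 393 and 506. The difference itself, tested as an interaction in limma, passed for 164 probe sets (0.3%) for 2,4-D minus fenbuconazole and for 185 (0.338%) for 2,4-D minus imazalil. Each chemical's arrays had been normalized as a set of their own. CYP3A4 rose by 0.55 with 2,4-D, 2.49 with fenbuconazole and 2.80 with imazalil, and 2,4-D differed by -1.94 ± 0.12 and -2.25 ± 0.13 (adjusted p of 1.27e-13 and 3.19e-15). CYP2B6 had 0.06, 1.80 and 3.34 (adjusted p of the differences 5.41e-06 and 3.67e-18). CYP1A1 had 0.22, 2.42 and 5.42 (adjusted p of 9.12e-11 and 1.06e-21). The differences of these P450 genes from the low arrays were thus larger with both fungicides than with 2,4-D. THRSP had -0.42 with 2,4-D, 0.66 with fenbuconazole and 0.34 with imazalil (adjusted p of 2.94e-05 and 0.00234).

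Some differences were larger in size with 2,4-D. EPHA1 had -0.80 with 2,4-D, -0.15 with fenbuconazole and -0.02 with imazalil, and 2,4-D differed by -0.65 ± 0.14 and -0.78 ± 0.17 (adjusted p of 0.0143 and 0.0206). ALDOC had -0.47, 0.16 and -0.25, and differed from fenbuconazole by -0.62 ± 0.11 (adjusted p = 0.00258), while the difference from imazalil was -0.22 ± 0.13 (adjusted p = 0.762). FABP4 had 0.60, 0.41 and -0.01, and differed from imazalil by 0.61 ± 0.13 (adjusted p = 0.0194). For PDK1, P4HA1, EGLN3 and SLC51A no difference between chemicals passed. PDK1 had -0.92, -0.41 and -0.65, with -0.51 ± 0.26 and -0.27 ± 0.23 between chemicals (adjusted p of 0.868 and 0.864). P4HA1 had -0.61, -0.55 and -0.44, with -0.06 ± 0.15 and -0.17 ± 0.10, and EGLN3 had -0.61, -0.65 and -0.84, with 0.04 ± 0.17 and 0.23 ± 0.15. SLC51A had -1.43, -0.86 and -1.06, with -0.57 ± 0.21 and -0.37 ± 0.30 (adjusted p of 0.599 and 0.845). The median of the glycolysis and hypoxia list was -0.18 with 2,4-D, -0.18 with fenbuconazole and -0.16 with imazalil, with 6, 3 and 1 genes lower. INHBE and SPP2 fell less with 2,4-D. INHBE had -0.56, -1.80 and -1.60 (adjusted p of the differences 0.0143 and 0.00494), and SPP2 had -0.44, -1.19 and -1.11 (adjusted p of 0.026 and 0.027).

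**Figure D4:**
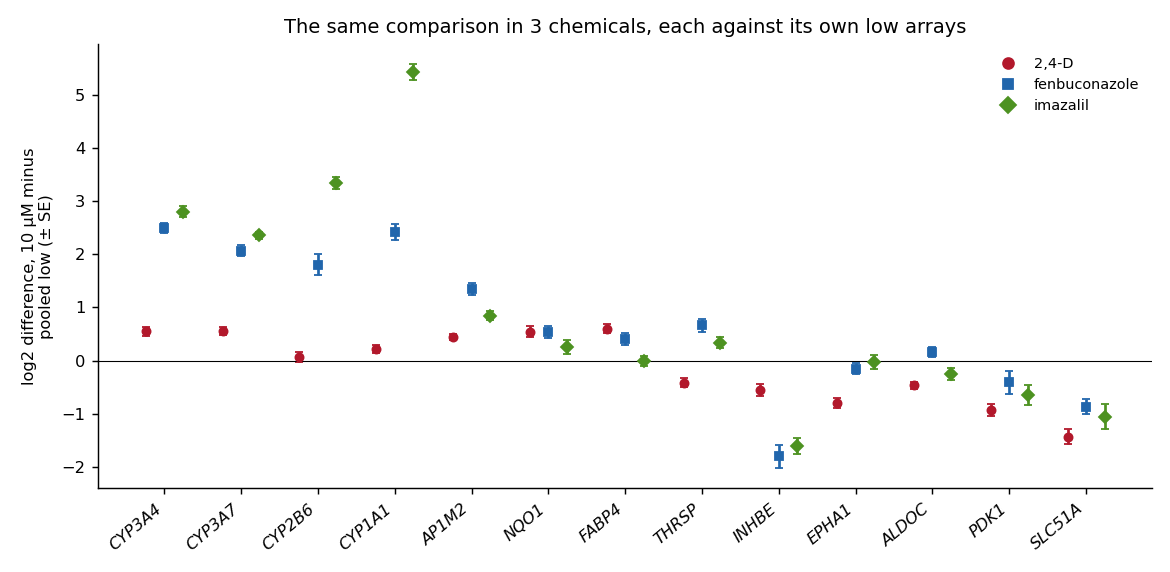
Log2 difference, 10 µM minus the chemical's own pooled low arrays, with its standard error, for 13 genes in 2,4-D, fenbuconazole and imazalil. CYP3A4 lies at 0.55, 2.49 and 2.80, while PDK1 and SLC51A lie below 0 in all 3 chemicals.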

How the data were processed

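RNA of HepaRG cells had been hybridised to Affymetrix HT HG-U133+ PM arrays. Per the submitters' processing notes, which name RMA and Partek without versions, the authors deposited log2 RMA expression values, normalized as 1 set per chemical. The background correction, summarisation and scaling could therefore not be varied here. The log2 values were fitted in limma 3.58.1 (R 4.3.3) with P code as a block and 10 µM against the pooled low arrays (18 arrays, 14 residual degrees of freedom), with Benjamini-Hochberg adjustment over all 54715 probe sets. The fit was tested on simulated data. Of the probe sets, 40920 had 1 gene symbol in the platform annotation, 864 several and 12931 none. Of the first, 40864 matched a RefSeq gene by their gene identifier. The rule named the 10 largest rises and falls among called genes, the 3 members of each list with the smallest p, and a fixed set of receptor targets, 122 genes, and 18 more were added beside it with their values in view. Members, lists and comparisons were chosen with earlier results of these data known. The study describes replicates as independent batches of cells. The P code had been set as the block beforehand, and this pairing was then checked. Deviations from group means correlated at a mean of 0.121 within P codes and -0.0604 between them, while arrays of the same title number had -0.0213. For 17 of 18 arrays the single most correlated array of another concentration had the same P code.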

Additional observations from a re-analysis of the deposited data

Results flagged for a closer look

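The response to 10 µM, minus the pooled low arrays of the same chemical, was tested for a difference between chemicals in limma, and the genes named in the report that passed an adjusted p of 0.05 are given here as 2,4-D minus the fungicide on the log2 scale. Lower and higher refer here to the signed value, not to its size. The signed response was lower with 2,4-D than with both fungicides for several genes. CYP1A1 differed by -2.20 from fenbuconazole and -5.20 from imazalil (adjusted p of 9.12e-11 and 1.06e-21). CYP1A2 differed by -0.93 from fenbuconazole and -3.16 from imazalil (adjusted p of 0.0294 and 1.1e-13). CYP2B6 differed by -1.74 from fenbuconazole and -3.28 from imazalil (adjusted p of 5.41e-06 and 3.67e-18). CYP3A4 differed by -1.94 from fenbuconazole and -2.25 from imazalil (adjusted p of 1.27e-13 and 3.19e-15). CYP3A7 differed by -1.51 from fenbuconazole and -1.80 from imazalil (adjusted p of 8.83e-10 and 2.95e-15). EPHA1, at -0.80 with 2,4-D, -0.15 with fenbuconazole and -0.02 with imazalil, fell more with 2,4-D. EPHA1 differed by -0.65 from fenbuconazole and -0.78 from imazalil (adjusted p of 0.0143 and 0.0206). THRSP differed by -1.08 from fenbuconazole and -0.75 from imazalil (adjusted p of 2.94e-05 and 0.00234). The signed response was higher with 2,4-D for CYP4A11, INHBE and SPP2. Their values were negative with all 3 chemicals and further below 0 with both fungicides. CYP4A11 had -0.32 with 2,4-D, where it was not called, -1.14 with fenbuconazole and -1.46 with imazalil. CYP4A11 differed by 0.82 from fenbuconazole and 1.14 from imazalil (adjusted p of 0.000789 and 2.68e-06). INHBE differed by 1.25 from fenbuconazole and 1.04 from imazalil (adjusted p of 0.0143 and 0.00494). SPP2 differed by 0.74 from fenbuconazole and 0.67 from imazalil (adjusted p of 0.026 and 0.027). From fenbuconazole alone ALDOC differed by -0.62 (adjusted p = 0.00258), AP1M2 differed by -0.90 (adjusted p = 2.03e-05) and FABP1 differed by -0.48 (adjusted p = 0.0461). From imazalil alone AHSG differed by 0.88 (adjusted p = 0.000186), CA12 differed by -0.50 (adjusted p = 0.0452), FABP4 differed by 0.61 (adjusted p = 0.0194) and MBL2 differed by -0.68 (adjusted p = 0.0372). AHSG had -0.46 with 2,4-D and -1.34 with imazalil, so that it fell less with 2,4-D. Here alone means that the other difference did not pass, not that it is absent. Groups held 3 or 15 arrays, so no array was tested as an outlier within a group.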

How the results depend on the processing

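Counts are probe sets at 10 µM called higher and lower, 35 and 123 in the report, unless genes are named. In a fit with no replicate block, thus without the pairing by P code, 20 and 72 were called, with the title number as the block 11 and 56, and with P code as a random block 22 and 76. An intensity trend gave 77 and 250, probe sets above the median level 55 and 190, the fit of 27 arrays 66 and 225, and array weights 13 and 71. In P1, P2 and P3 the weights were 0.663, 0.926 and 0.608 at 10 µM and 0.605, 0.895 and 0.617 at 0.03 µM. The other low arrays had weights of 0.827 to 1.57. Whether array quality has a part in the differences was not tested. In genes, of which the report has 14 and 70, adjustment over genes alone gave 29 and 92, and the mean of a gene's probe sets 42 and 118. Over all settings, that mean among them, some differences were much smaller in size than in the report. The smallest were 0.246 for FABP4, 0.13 for CENPI, 0.234 for CIT, -0.297 for P4HA1, -0.337 for FETUB, -0.167 for GLYATL1 and -0.265 for TFR2. ADSS1 and EPHA1 went to -0.466 and -0.454, but kept their calls in every setting. With 1 array left out FABP4 stayed between 0.564 and 0.634. A pool with 0.3 µM added gave 57 higher. The pool without 0.001 µM gave 18 and 77, without 0.01 µM 15 and 78, without 0.03 µM 61 and 209, and without 0.1 µM 14 and 67. Without both arrays of sample code 37, a code that 2 arrays share, 23 were higher. Leaving out all 6 arrays of P1 gave 13 and 71, of P2 1 and 20, and of P3 6 and 23. With 1 array left out, higher counts were 12 to 41 and lower counts 40 to 162. The cause of these shifts was not tested. The slope passed for 331 probe sets on the linear scale, 5 without the block and 1 without 10 µM. The difference between chemicals passed for 100 and 95 probe sets against fenbuconazole without P1 or P2, and for 105, 76 and 83 against imazalil without P1, P2 or P3. PDK4, at -0.06 in the report, was 0.006 without 0.1 µM and 0.003 without the P1 array at 10 µM or without all of P1, and between -0.148 and 0.003 with 1 array left out, never near the threshold. Among the low concentrations, and at 0.3, 1 and 3 µM, 0 probe sets passed under each setting run. The slopes without the block or without 10 µM and the P codes left out between chemicals were chosen after seeing the data. Genes were followed over the settings only if they were among the 51 called genes described or the uncalled receptor targets of the fixed set. Over these, 1794 values kept direction and side of the threshold, 480 lost the threshold and 1, of PLIN2, passed it. Other genes given with values, such as CYP8B1, LDHA and CRP, were not followed. The number of arrays limits precision: the median standard error was 0.094.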
